A study of Mus musculus with 15 samples.

Results

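In the tumor-draining lymph node (TdLN), every T cell receptor (TCR) β rearrangement of the sorted CD8+ PD-1+ CD44+ T cells was listed as in frame, out of frame or interrupted by a stop codon, and the in-frame and out-of-frame sets of the same mouse were compared here. The members are all rearrangements whose status in the deposited files is In (in frame, without a stop codon in the CDR3, called In below) or Out (out of frame, called Out below). They number 24271, of which 15712 are In and 8559 are Out, out of 29992 rearrangements in the 15 samples of the series. A further 299 rearrangements of the lymph nodes carry a stop codon in the CDR3 and were kept apart.

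The 5 lymph nodes came from 5 untreated female C57BL/6 mice, 6 weeks old when bought, without radiation or antibody. Each mouse carried B16F10GP, the B16F10 melanoma line expressing the LCMV glycoprotein, in the right flank from day 0 (tumor 1) and in the left flank from day 3 (tumor 2), and the node draining tumor 1 was taken at day 19. Genomic DNA of the sorted cells was sequenced over the CDR3 with the immunoSEQ assay, which reports the number of template molecules of each distinct rearrangement. There is 1 library per mouse, and a DNA library of rearrangements holds no marker genes by which the sort could be checked.

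The β chain of the TCR is assembled by joining a D to a J segment and then a V segment to DJ. At each joint bases are trimmed from the segments and non-templated N bases are added, so most joints that are made at random leave the reading frame. A T cell that carries an out-of-frame rearrangement on one chromosome survives on a productive rearrangement of the other, which is why out-of-frame rearrangements are widely used as a picture of the repertoire before selection on the protein. The CDR3, the loop read from the last cysteine codon of V to the phenylalanine codon of J, makes most of the contact with the peptide.

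The sequences behind the comparisons are the segments that are joined (GRCm38, chromosome 6). Both D segments consist mostly of G, and the capitals mark their longest G run, of 5 bases in Trbd1 (chr6:41533201-41533212, plus strand) and of 7 bases in Trbd2 (chr6:41542163-41542176, plus strand). The ends of Trbv4 (chr6:41059870-41059886, plus strand) and Trbv24 (chr6:41218532-41218557, plus strand) are shown because each holds a stop codon in the reading frame, in capitals. In Trbv4 it starts at base 13 of the CDR3, and in Trbv24 it lies 6 bases before the cysteine codon.
Trbd1: gggacaGGGGGc
Trbd2: gggactGGGGGGGc
Trbv4: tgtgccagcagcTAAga
Trbv24: ctgTAGctctgtgccagcagtctgta

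In made up 63.4% ± 2.92 (SD, n = 5 mice) of the rearrangements of a node, and Out made up 35.4% ± 2.92. The 5 In sets held 1290 to 5722 rearrangements and 3254 to 9105 templates, and the Out sets 717 to 3322 rearrangements and 1408 to 4602 templates. Nodes 4 and 5 held more rearrangements (8609 and 9149) than nodes 1 to 3 (2083 to 2534), so they weigh most in any count over all nodes. Of the Out rearrangements, 55.5% ± 2.21 had a CDR3 length leaving a remainder of 2 bases after division into codons, and the rest a remainder of 1 base.

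In each node a single rearrangement led each set, and these leaders are shown because they give the junctions in full (N bases in capitals, read to its end, which lies 3 bases short of the end of the CDR3). The largest In rearrangement held 409, 113, 202, 48 and 27 templates in mice 1 to 5, and the largest Out rearrangement 154, 96, 95, 23 and 32. Out leaders were thus of the same order as In leaders, and in mouse 5 the Out leader was the larger. Of the 5 Out leaders, 3 used Trbv19 and 1 used Trbv22, a V pseudogene.
Mouse 1 In, Trbv16 and Trbj2-7: CTTGGGaggggtcctatgaacagtac
Mouse 1 Out, Trbv19 and Trbj1-3: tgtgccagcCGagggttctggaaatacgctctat
Mouse 2 In, Trbv1 and Trbj1-5: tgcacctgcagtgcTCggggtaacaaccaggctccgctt
Mouse 2 Out, Trbv22 and Trbj1-5: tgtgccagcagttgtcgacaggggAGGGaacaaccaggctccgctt
Mouse 3 In, Trbv2 and Trbj2-1: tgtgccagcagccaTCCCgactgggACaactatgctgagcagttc
Mouse 3 Out, Trbv20 and Trbj1-2: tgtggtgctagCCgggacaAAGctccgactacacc
Mouse 4 In, Trbv20 and Trbj1-5: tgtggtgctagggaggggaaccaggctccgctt
Mouse 4 Out, Trbv19 and Trbj2-7: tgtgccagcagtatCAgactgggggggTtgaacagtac
Mouse 5 In, Trbv20 and Trbj2-7: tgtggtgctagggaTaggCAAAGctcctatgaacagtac
Mouse 5 Out, Trbv19 and Trbj2-7: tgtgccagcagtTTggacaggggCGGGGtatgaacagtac

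The leader of the In set of mouse 1, with 10.8% of its templates, had lost 25 bases of Trbv16. Its N bases begin 8 bases before the position of the cysteine codon, which is no longer in the read, and it was listed as In with a CDR3 of 21 bases. The status in the files therefore describes the frame and the stop codons of the CDR3 and not whether a complete receptor is encoded.

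A feature of the Out sets touches every comparison below and is given first. Many Out rearrangements with 1 template were a copy, but for 1 base, of a larger rearrangement of the same node. Over the last 60 bases of the read, 33.2% ± 6.37 (SD, n = 5 mice) of the 1-template Out rearrangements differed by 1 base from a rearrangement with at least 2 times their templates, against 4.94% ± 2.02 of the 1-template In rearrangements. The lowest of the Out nodes was at 25.9% and the highest of the In nodes at 8.17%, so the sets did not overlap.

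The kind of the 1-base difference was not the same in the sets. A deleted base was found in 22.8% ± 4.95 of 1-template Out rearrangements and in 1.98% ± 1.18 of 1-template In rearrangements, and an inserted base in 9.55% ± 1.54 against 1.19% ± 0.987. A substituted base, which keeps the frame, was found in 0.814% ± 0.135 of Out against 1.77% ± 0.263 of In. The excess in Out thus lay in inserted and deleted bases. Within the CDR3 an inserted or deleted base takes a rearrangement out of the frame of its neighbor. By such a change in the CDR3 an Out rearrangement can be a copy of an In one, but an In rearrangement cannot. Outside the CDR3 the length of the CDR3 stays the same. Of the 452 In rearrangements with a larger neighbor, 192 differed by a substituted base, while 224 had an In neighbor. Some In rearrangements therefore differed from a larger In rearrangement by an inserted or deleted base. Where in the read these bases lay was not tested.

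Of the 2162 Out rearrangements with such a larger neighbor, the neighbor was In for 1826 (84.5%). In 1905 of the 2106 that differed by an inserted or deleted base the base was a G, and in 1814 (86.1%) it lay in a run of at least 5 G. Germline Trbd2 has a run of 7 and germline Trbd1 a run of 5. Runs of 6 or 8 bases are 1 off the run of Trbd2, and a run of 6 is also 1 off that of Trbd1. A longest G run of 6 or 8 bases was present in the CDR3 of 27.3% ± 2.75 of 1-template Out rearrangements and 12.7% ± 1.19 of 1-template In rearrangements. At 2 or more templates it was present in 9.78% ± 2.98 of Out and 11.9% ± 0.984 of In, and a run of exactly 7 in 8.30% to 9.73% of all 4 classes. Whether these rearrangements arose in the cells or in the assay was not tested.

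**Figure D1:**
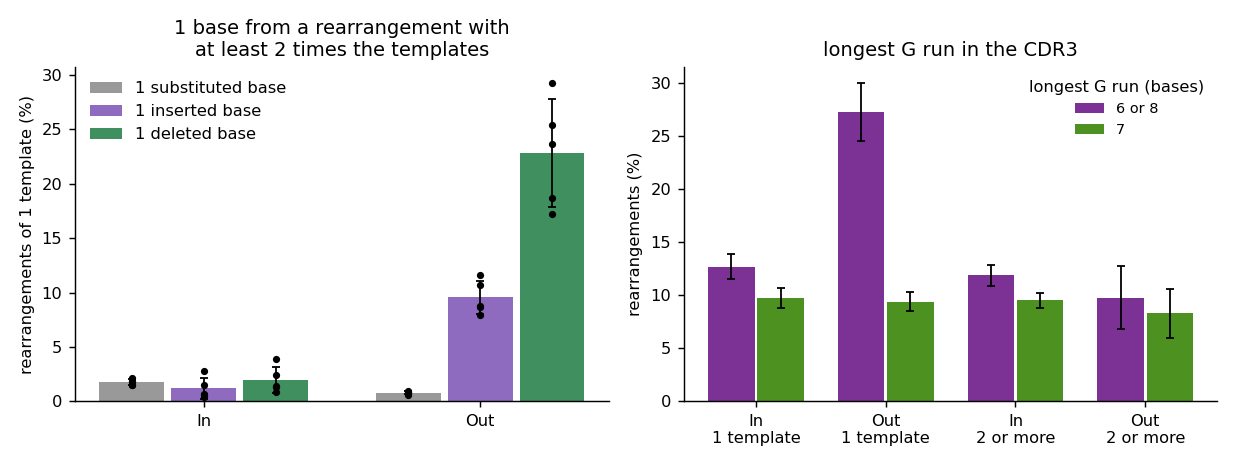
Left, the percentage of 1-template rearrangements, In or Out, that differ by 1 substituted, inserted or deleted base from a rearrangement of the same node with at least 2 times the templates (bars, mean; error bars, SD; points, 5 mice); right, the percentage whose longest G run in the CDR3 is 6 or 8, or 7, bases, by set and number of templates (mean and SD, 5 mice). Deleted bases reach 22.8% in Out against 1.98% in In, and runs of 6 or 8 G stand out only in Out rearrangements with 1 template.

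An example of each kind shows the difference, with the G run in capitals. A rearrangement of Trbv2 and Trbj1-5 in mouse 1 was In with 93 templates, and its Out neighbor with 1 template had 1 G less. A rearrangement of Trbv13-2 and Trbj2-1 in mouse 3 was In with 49 templates, and its Out neighbor with 1 template had 1 G more.
Mouse 1 In, 93 templates: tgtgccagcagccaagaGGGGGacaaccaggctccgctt
Mouse 1 Out, 1 template: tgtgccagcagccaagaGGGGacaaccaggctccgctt
Mouse 3 In, 49 templates: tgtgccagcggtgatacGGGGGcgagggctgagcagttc
Mouse 3 Out, 1 template: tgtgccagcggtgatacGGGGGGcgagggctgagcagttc

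Leaving out every rearrangement with such a larger neighbor removed 25.3% of Out (2162 of 8559) and 2.88% of In (452 of 15712). Out then made up 29.9% ± 1.90 of In and Out together, against 35.8% ± 2.95 with all. This removal was chosen after the data were seen, and the main results below are given with and without it.

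V gene usage differed most between In and Out. The 4 tested V genes of a fixed pseudogene list were rarer in In, and so were 9 V genes outside that list. The Trbv13 family, Trbv14 and Trbv29 were more frequent in In in all 5 mice, and Trbv12-1 and Trbv12-2 each in 4 of 5. Of 26 V genes tested, 21 differed with edgeR's quasi-likelihood test at an adjusted p under 0.05, with the mouse as a block (80.8%). The share was higher in In for 8 (30.8%) and lower in In for 13 (50%). With the 1-base neighbors left out 20 were called, and in nodes 1 to 3 alone, with fewer rearrangements, 12. Since shares sum to 100% within a set, a rise of some V genes lowers the others, and the values are relative to the rest of the set. With TMM scaling the median log2 ratio moved by 0.14 and 17 V genes were called, 9 higher and 8 lower, and with DESeq2 7 higher and 7 lower, with no called gene changing direction.

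**Figure D2:**
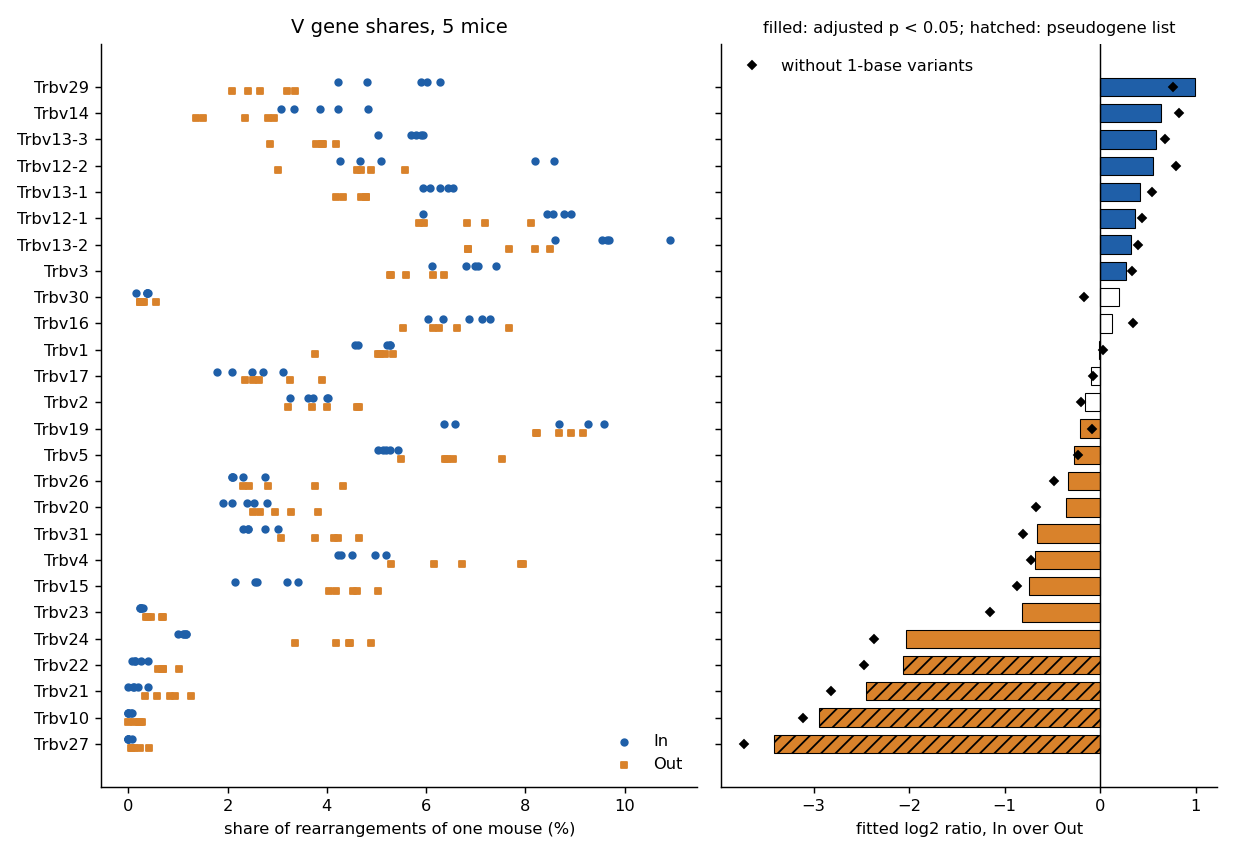
Left, the share of each tested V gene among the In (circles) and the Out (squares) rearrangements of each of the 5 mice; right, the fitted log2 ratio of In over Out (bars; filled, adjusted p under 0.05; hatched, fixed pseudogene list) and the same without the 1-base neighbors (diamonds). Trbv29 has the highest ratio at 0.99, and the 4 tested genes of the pseudogene list lie between -2.06 and -3.41.

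V pseudogenes, whose product is not a functional chain, were rarer in In. Of the 13 genes in the fixed list 11 were seen and 4 had enough rearrangements to be tested, and all 4 were called lower, with a median log2 ratio of -2.70 (-2.96 without the 1-base neighbors) against -0.18 over all V genes tested. Of the 7 seen but too rare for the test, Trbv25 was found in 3 In and 0 Out rearrangements and Trbv28 in 1 and 0, and the other 5 had the higher mean share in Out. Together the list made up 0.445% ± 0.340 of In and 2.17% ± 0.816 of Out, with the highest In mouse at 0.930% and the lowest Out mouse at 1.02%.

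Trbv22 made up 0.0742%, 0.245%, 0.388%, 0.140% and 0.122% of In in mice 1 to 5 against 0.697%, 0.696%, 1.03%, 0.683% and 0.602% of Out. Every Out mouse was above every In mouse (log2 ratio -2.06, edgeR adjusted p = 4e-07). Trbv21 made up 0.153% ± 0.147 of In and 0.788% ± 0.352 of Out (log2 ratio -2.45, edgeR adjusted p = 3.07e-07), although GENCODE M21 lists it as a gene. Trbv10 and Trbv27 were called as well, on 2 In and 11 Out and on 1 In and 10 Out rearrangements. Trbv27 was absent from In in mice 2 to 5, where 0 counts allow a share of up to 0.0524% to 0.233% of In (3 rearrangements of the set, for counting error only).

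Trbv24, which GENCODE M21 lists as a pseudogene but the fixed list does not hold, had the smallest adjusted p of all V genes. It made up 1.11%, 1.10%, 1.16%, 1.15% and 0.997% of In in mice 1 to 5, and 3.35%, 4.18%, 4.45%, 4.89% and 4.46% of Out. The In shares lay close together and far below every Out share (log2 ratio -2.03, edgeR adjusted p = 1.12e-16; -2.37 without the 1-base neighbors). In all 171 In rearrangements of Trbv24 the read held the stop codon 6 bases before the cysteine codon that the germline segment shows above. In the other V genes 26 of 15532 In rearrangements had a stop codon before the CDR3. The In status of Trbv24 rearrangements thus does not stand for an open reading frame.

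Trbv4, the gene of Vβ10, fell in In although it is a functional V gene. Its shares were 4.23%, 4.97%, 5.19%, 4.51% and 4.29% of In and 5.30%, 6.73%, 6.16%, 7.91% and 7.95% of Out. All Out mice were above all In mice (log2 ratio -0.68, edgeR adjusted p = 2.13e-07; -0.72 without the 1-base neighbors). In nodes 1 to 3 alone the log2 ratio was -0.34 and missed the threshold (edgeR adjusted p = 0.0535), and in nodes 4 and 5 it was -0.85. Its germline end carries the stop codon TAA shown above, which is left intact when fewer than 3 bases are trimmed. Fewer than 3 bases had been trimmed in 1.14% ± 1.52 of the In rearrangements of Trbv4 (8 of 708), in 34.0% ± 10.2 of the Out rearrangements (208 of 634) and in 92.6% ± 6.96 of those with a stop codon in the CDR3 (119 of 134). Mean V trimming of Trbv4 was 4.61 ± 0.0581 bases in In against 3.31 ± 0.469 bases in Out. With the rearrangements that carry a stop codon added to In, the log2 ratio of Trbv4 was -0.46 in place of -0.68.

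Among the other V genes outside the pseudogene list, 7 more were called lower. Trbv15, the gene of Vβ12, made up 2.15% to 3.41% of In and 4.04% to 5.02% of Out (log2 ratio -0.75, edgeR adjusted p = 2.13e-07). Trbv31, the gene of Vβ14 that lies downstream of the D and J segments on the opposite strand and joins by inversion, made up 2.30% to 3.01% of In and 3.07% to 4.64% of Out (log2 ratio -0.66, edgeR adjusted p = 1.8e-06). Both sets of shares were free of overlap in both genes, and both ratios were larger without the 1-base neighbors (-0.87 and -0.81).

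Trbv23 was rare in both sets, at 0.253% ± 0.0281 of In and 0.521% ± 0.160 of Out (log2 ratio -0.82, adjusted p = 0.0167 in edgeR). Smaller ratios were found for Trbv20 (-0.36), Trbv26 (-0.33) and Trbv5 (-0.27), the genes of Vβ15, Vβ3 and Vβ1. Trbv5 missed the threshold without the 1-base neighbors (log2 ratio -0.24, edgeR adjusted p = 0.0556) and had a log2 ratio of 0.063 at 2 or more templates. Trbv19, the gene of Vβ6 (log2 ratio -0.21), missed it as well (-0.09, edgeR adjusted p = 0.585) and stood at 0.062 in nodes 1 to 3 alone. With DESeq2 Trbv23, Trbv20 and Trbv26 missed the threshold (adjusted p = 0.151, 0.195 and 0.180), and with TMM scaling they missed it in edgeR (adjusted p = 0.0522, 0.103 and 0.185). In Trbv20 the In share was below Out in 4 of 5 mice, in Trbv26 and Trbv5 in all 5.

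Trbv29, the gene of Vβ7, had the highest log2 ratio with all rearrangements. Its shares of In in mice 1 to 5 were 6.01%, 5.89%, 6.28%, 4.81% and 4.22%, and its shares of Out were 2.65%, 3.36%, 3.20%, 2.41% and 2.08%. The lowest In mouse was above the highest Out mouse (log2 ratio 0.99, edgeR adjusted p = 6.95e-10). The ratio was 0.77 without the 1-base neighbors (edgeR adjusted p = 3.13e-05), below those of Trbv14 (0.83) and Trbv12-2 (0.79). Its germline end (chr6:41271865-41271881, plus strand) holds no stop codon.
Trbv29: tgtgctagcagtttatc

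The Trbv13 family, the genes of Vβ8.1, Vβ8.2 and Vβ8.3, rose in all 3 of its members, with a median log2 ratio of 0.42. Together they made up 21.6% ± 1.11 of In and 15.9% ± 1.08 of Out, and the lowest In mouse (19.7%) was above the highest Out mouse (17.1%). Trbv13-3 made up 5.03% to 5.94% of In and 2.85% to 4.18% of Out (log2 ratio 0.59, edgeR adjusted p = 3.75e-06). Trbv13-1 made up 5.93% to 6.53% of In and 4.18% to 4.79% of Out (log2 ratio 0.42), and Trbv13-2 8.59% to 10.9% of In and 6.84% to 8.49% of Out (log2 ratio 0.33). In all 3 genes the In mice lay above the Out mice.

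The Trbv12 family behaved less evenly. Its 2 tested members, Trbv12-1 and Trbv12-2, the genes of Vβ5.2 and Vβ5.1, were called higher (log2 ratios 0.37 and 0.55), but each was higher in In in only 4 of 5 mice. Trbv12-2 made up 4.68%, 5.09%, 4.26%, 8.20% and 8.57% of In and 4.60%, 3.02%, 4.68%, 4.89% and 5.57% of Out. The In shares were high in mice 4 and 5 and within the Out range in mice 1, 2 and 3. In nodes 1 to 3 alone the log2 ratio of Trbv12-2 was 0.21 and that of Trbv12-1 0.11, and neither was called. Trbv12-1 was lower in In than in Out in mouse 1 (5.94% against 6.83%) and higher in the others, and counted by templates in limma its log2 ratio was -0.11.

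Trbv14, the gene of Vβ13, rose as well, from 1.37% to 2.93% of Out to 3.08% to 4.83% of In (log2 ratio 0.63, edgeR adjusted p = 4.14e-05). Trbv3 made up 6.12% to 7.40% of In and 5.27% to 6.36% of Out, with overlap of the sets although In was higher in all 5 mice (log2 ratio 0.28, edgeR adjusted p = 0.00781). Its call was lost without mouse 5 (log2 ratio 0.17, edgeR adjusted p = 0.138), in nodes 1 to 3 or 4 and 5 alone, and in DESeq2 (adjusted p = 0.0548) and limma (adjusted p = 0.0528). Of the V genes at the ends of the locus, Trbv31 is described above, and Trbv1 at the other end had 4.99% ± 0.361 of In and 4.87% ± 0.631 of Out (log2 ratio -0.01, edgeR adjusted p = 0.901). Trbv2, Trbv16, Trbv17 and Trbv30 did not pass the threshold with all rearrangements. Trbv16 passed it without the 1-base neighbors (log2 ratio 0.35, edgeR adjusted p = 0.012).

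N insertions were fewer in In than in Out in all 5 mice. The mean number per rearrangement, over both joints, was 3.95, 3.75, 3.70, 3.33 and 3.22 bases in In and 4.72, 4.60, 4.42, 3.96 and 4.03 bases in Out. The sets did not overlap, although the highest In mouse (3.95) lay just below the lowest Out mouse (3.96), and the 5 within-mouse differences were between -0.843 and -0.627 bases. The mean difference was -0.753 ± 0.0850 bases (SD of the 5 differences; two-sided exact sign-flip permutation test, p = 0.0625, the smallest p that 5 mice allow, and also 0.0625 after Benjamini-Hochberg adjustment over the 7 measures tested in this way).

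Both joints contributed. On the V-D side In had 1.84 ± 0.165 bases against 2.15 ± 0.183 in Out, and on the D-J side 1.75 ± 0.144 against 2.19 ± 0.168. The ratio of Out to In was highest for long insertions, while in percentage points the class of 6 to 9 N bases differed most (18.0% ± 2.95 of In, 21.9% ± 2.44 of Out). Rearrangements with 10 or more N bases made up 2.39% ± 0.710 of In and 6.01% ± 1.55 of Out, without overlap of the mice, while those with none made up 9.71% ± 3.26 of In and 7.70% ± 2.77 of Out and were more frequent in In in 4 of 5 mice. The median number of N bases was the same in In and Out in 4 of 5 mice.

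The lower mean held across genes. Among 20 V genes with enough rearrangements in each mouse, In had the lower mean in 20, and in 15 of these in all 5 mice, with differences of -1.23 to -0.118 bases. Among 12 J genes it was lower in 12, and in 9 of these in all 5 mice. Without the 1-base neighbors the mean difference was -0.676 ± 0.105 bases, and among rearrangements with 2 or more templates it was -0.484 ± 0.180 bases, lower in In in all 5 mice both times.

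**Figure D3:**
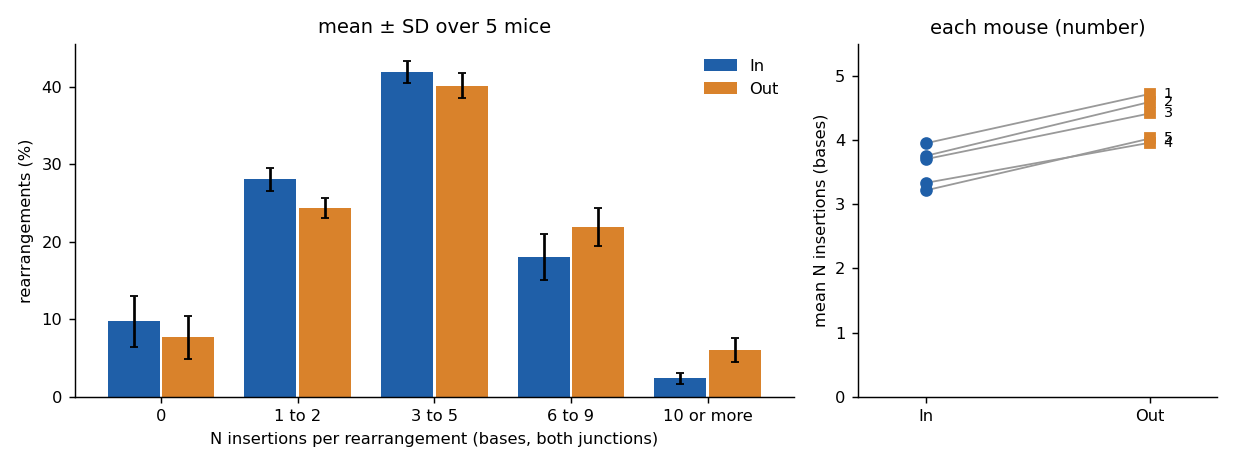
Left, the percentage of In and Out rearrangements by their number of N bases over both joints (bars, mean; error bars, SD; 5 mice); right, the mean number of N bases in In and Out of each mouse, joined by a line. Rearrangements with 10 or more N bases make up 2.39% of In and 6.01% of Out, and all 5 lines rise from In to Out.

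The CDR3 was shorter and less variable in length in In. Its mean length was 42.4, 42.1, 42.1, 41.8 and 41.8 bases in In and 42.7, 42.7, 42.4, 42.3 and 42.4 bases in Out, a difference of -0.454 ± 0.128 bases (exact sign-flip permutation test, p = 0.0625, the smallest possible). The SD of the length within a set was 4.50 ± 0.166 bases in In and 5.03 ± 0.233 bases in Out, lower in In in all 5 mice. The difference in mean length was -0.652 ± 0.103 bases once the 1-base neighbors were left out, and -0.361 ± 0.497 bases at 2 or more templates, lower in In in 4 of 5 mice. Only lengths that are multiples of 3 bases can be In, and the Out lengths lie between them, so a difference of this size is below the spacing of the In lengths.

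Trbd1 was read in different frames in In and Out. Counted from the cysteine codon, Trbd1 was read from its first base in 41.1%, 36.3%, 38.3%, 35.8% and 36.2% of the In rearrangements that use it and in 34.2%, 29.0%, 32.7%, 32.6% and 30.1% of the Out rearrangements. In was higher in every mouse, and the lowest In mouse was above the highest Out mouse. The frame from the second base was found in 28.4% ± 2.85 of In against 34.9% ± 1.46 of Out, also without overlap, and the frame from the third base in 34.0% ± 2.38 against 33.4% ± 3.36. The differences of the first and second frame were 5.86 ± 1.62 and -6.45 ± 4.14 percentage points (exact sign-flip permutation test, p = 0.0625 each, not adjusted), and 6.88 and -7.09 without the 1-base neighbors. The frames were not among the 7 measures adjusted together. For Trbd2 the frame from the first base was used by 30.5% ± 1.80 of In and 30.0% ± 0.849 of Out, and no frame differed in the same direction in all 5 mice.

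D gene usage differed with all rearrangements and not without the 1-base neighbors. Among rearrangements with a resolved D gene, Trbd1 was named in 53.6%, 52.8%, 49.9%, 54.2% and 53.6% of In and in 42.6%, 48.5%, 40.9%, 47.7% and 40.6% of Out. In was higher in all 5 mice, by 8.76 ± 3.47 percentage points (exact sign-flip permutation test, p = 0.0625). Without the 1-base neighbors the shares were 53.5% ± 1.37 and 54.2% ± 3.38, a difference of -0.722 ± 3.41 percentage points, higher in In in 2 of 5 mice (exact sign-flip permutation test, p = 0.625). Among rearrangements with 2 or more templates the order was reversed, with 52.8% ± 1.58 in In and 62.6% ± 2.54 in Out, lower in In in all 5 mice. Trbd2 was named for 75.4% of the Out rearrangements with a larger 1-base neighbor.

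The D gene was left unresolved in 17.9% ± 0.897 of In and 15.1% ± 1.32 of Out. Its naming has a limit that the order of the segments shows. Trbd2 lies downstream of the Trbj1 cluster and cannot be joined to it by deletion, yet it was named in 9.80% ± 1.29 of the In and 13.4% ± 2.30 of the Out rearrangements of Trbj1 with a resolved D gene.

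J gene usage depended on these rearrangements too. Of 13 J genes tested 3 were called with all rearrangements (23.1%), 2 higher in In (15.4%) and 1 lower (7.69%). With TMM scaling 1 was called higher and 1 lower, and with DESeq2 0 were called higher and 2 lower. Without the 1-base neighbors 5 were called, and of the 3 first called Trbj1-1 and Trbj2-4 were no longer called while Trbj2-7 was called in the opposite direction. The other 4 called then, Trbj1-2, Trbj1-5, Trbj1-6 and Trbj2-2, named here after their values were seen, fell in In with log2 ratios of -0.30, -0.35, -0.35 and -0.26.

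Trbj2-7, the most used J gene of both sets, made up 22.3%, 21.7%, 20.8%, 22.5% and 22.1% of In and 29.1%, 28.1%, 25.7%, 28.2% and 30.2% of Out. All Out mice were above all In mice (log2 ratio -0.37, edgeR adjusted p = 7.44e-06). Without the 1-base neighbors it made up 20.7% ± 0.882 of In and 15.5% ± 0.698 of Out, higher in In in all 5 mice (log2 ratio 0.41, edgeR adjusted p = 7.95e-05). The same held at 2 or more templates, where it made up 44.1% ± 7.23 of In and 36.7% ± 6.08 of Out, and at 1 template it made up 8.62% ± 1.65 of In and 25.5% ± 1.98 of Out. Of the Out rearrangements with a larger 1-base neighbor 67.1% used Trbj2-7. The segment (chr6:41543810-41543856, plus strand) is shown with the phenylalanine codon that ends the CDR3 in capitals.
Trbj2-7: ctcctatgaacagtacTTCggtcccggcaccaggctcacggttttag

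Trbj1-1, the J gene next to Trbd1, made up 9.98% ± 0.810 of In and 7.06% ± 1.62 of Out (log2 ratio 0.54, edgeR adjusted p = 0.00649), and without the 1-base neighbors its log2 ratio was 0.16 (edgeR adjusted p = 0.266). Trbj2-4 made up 8.07% ± 0.691 of In and 6.92% ± 0.685 of Out (log2 ratio 0.23, edgeR adjusted p = 0.0343), and without the 1-base neighbors its log2 ratio was -0.10 (edgeR adjusted p = 0.228). The J genes without a normal product, Trbj1-7 and Trbj2-6, were seen in 3 In and 14 Out rearrangements in all. Trbj1-7 was tested and did not pass the threshold (log2 ratio -2.81, edgeR adjusted p = 0.0716). The Trbj1 cluster as a whole made up 32.6% ± 1.50 of In and 29.8% ± 2.08 of Out, higher in In in 4 of 5 mice, with a median log2 ratio of 0.00 over its 7 genes against 0.08 over the 6 tested genes of the Trbj2 cluster and 0.03 over all J genes tested. This difference reversed without the 1-base neighbors, to 33.1% ± 1.40 of In and 36.4% ± 2.03 of Out, and at 2 or more templates, to 29.9% ± 2.02 and 37.4% ± 1.40, lower in In in 4 of 5 and in 5 of 5 mice.

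**Figure D4:**
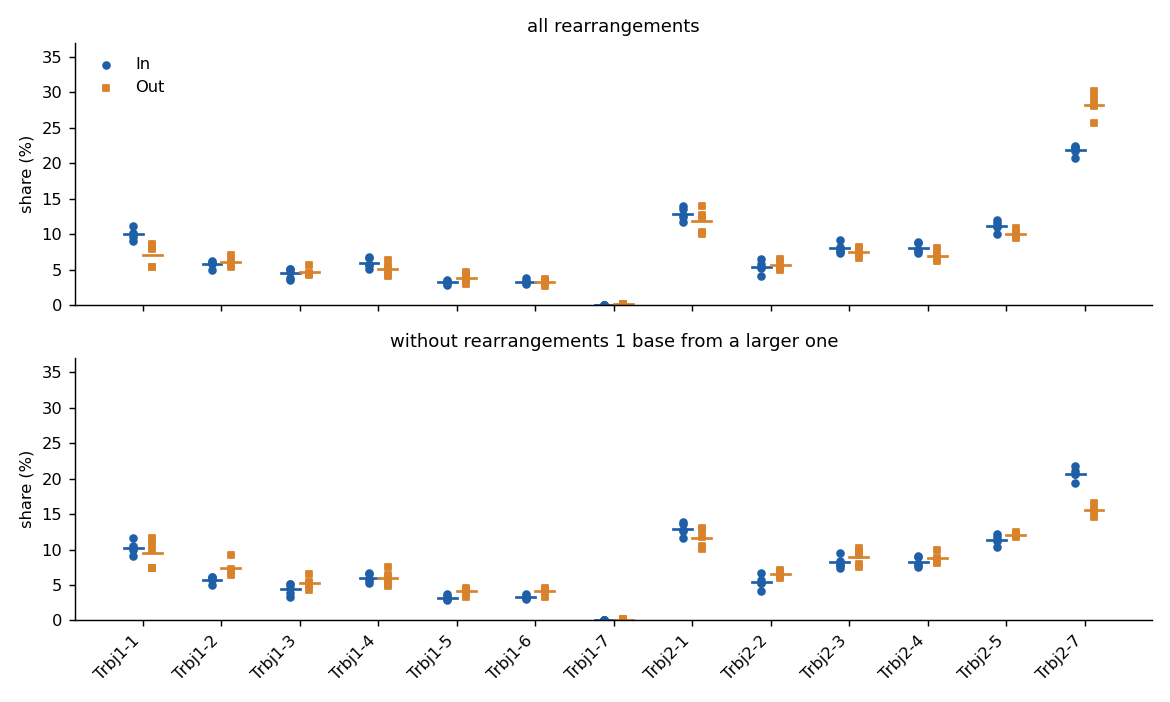
Share of each tested J gene among the In (circles) and Out (squares) rearrangements of each of the 5 mice, with the mean as a line, for all rearrangements (top) and without those 1 base from a larger rearrangement (bottom). Trbj2-7 lies lower in In in the top panel (21.9% against 28.3%) and higher in In in the bottom panel (20.7% against 15.5%).

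Trimming differed by fractions of a base. The V segment had lost 2.66 ± 0.143 bases in In and 3.08 ± 0.266 in Out, lower in In in all 5 mice by 0.271 to 0.726 bases (mean -0.426 ± 0.186; exact sign-flip permutation test, p = 0.0625). Nearly all of this lay in V segments trimmed by over 10 bases, which made up 0.658% ± 0.266 of In and 3.0% ± 1.2 of Out. Among V segments trimmed by at most 10 bases the means were 2.55 ± 0.124 and 2.59 ± 0.0984 bases. The difference was -0.331 ± 0.145 bases without the 1-base neighbors and -0.499 ± 0.200 bases without Trbv4. Weighted by templates it was 0.0674 bases, in the other direction. In this weighting the leader of the In set of mouse 1, with 25 bases of V trimmed, counted for 10.8% of its set. The value without that leader was not computed.

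The J segment had lost 2.87 ± 0.0408 bases in In and 3.05 ± 0.135 in Out (difference -0.181 ± 0.133; exact sign-flip permutation test, p = 0.0625). Without the 1-base neighbors the difference was 0.10 ± 0.17 bases, higher in In in 3 of 5 mice. D trimming, both sides together, was 5.43 ± 0.0537 bases in In and 5.29 ± 0.0911 in Out (difference 0.139 ± 0.0864; exact sign-flip permutation test, p = 0.0625), and without the 1-base neighbors the difference was 0.0105 ± 0.114 bases. Of the differences in V, J and total D trimming, only that of the V segment kept its direction in all 5 mice without those neighbors. With all rearrangements the sides of the D segment differed in opposite directions, each in all 5 mice. On the 5 prime side In had lost 2.47 ± 0.0311 bases against 2.67 ± 0.0856 in Out. On the 3 prime side it had lost 2.96 ± 0.0520 against 2.62 ± 0.0583. Without those neighbors the differences were -0.109 ± 0.0621 (lower in all 5 mice) and 0.119 ± 0.110 (higher in 4 of 5). At 2 or more templates they were -0.0805 ± 0.150 and 0.0197 ± 0.246.

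In rearrangements had more templates than Out rearrangements. The mean number was 2.81, 2.0, 3.05, 1.53 and 1.59 in In of mice 1 to 5, and 1.96, 1.85, 2.23, 1.32 and 1.39 in Out. Within each mouse In was higher, while nodes 1 to 3 were above nodes 4 and 5 in both sets. The mean log2 ratio was 0.30 ± 0.18 (SD, n = 5; exact sign-flip permutation test, p = 0.0625). The share with 1 template was 61.7% ± 6.48 in In and 74.7% ± 4.04 in Out.

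The classes of 2, 3 and 4 to 9 templates were more frequent in In in all 5 mice. Those with 2 made up 22.2% ± 2.60 of In and 15.9% ± 2.49 of Out, and those with 3 made up 9.15% ± 1.02 and 5.22% ± 0.117. Those with 4 to 9 made up 5.19% ± 2.68 and 2.78% ± 1.12. Those with 10 or more made up 1.76% ± 1.68 and 1.42% ± 1.11, and were more frequent in In in 2 of 5 mice. Among rearrangements with 2 or more templates the log2 ratio of the means was 0.04 ± 0.20, above 0 in 3 of 5 mice. Leaving out the 1-base neighbors gave a log2 ratio of 0.13 ± 0.13, above 0 in 4 of 5 mice, and 60.6% ± 6.98 of In against 67.3% ± 5.51 of Out had 1 template.

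The number of templates depended on the J gene. In rearrangements of Trbj2-7 had 3.78 ± 1.61 templates on average and those of Trbj1-1 had 1.23 ± 0.245, and the same J genes had 1.94 ± 0.319 and 1.15 ± 0.198 in Out. The In mean exceeded the Out mean in all 5 mice for Trbj2-7 alone among the J genes. A template count here is the assay's estimate, and how far it depends on the J gene used was not tested.

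**Figure D5:**
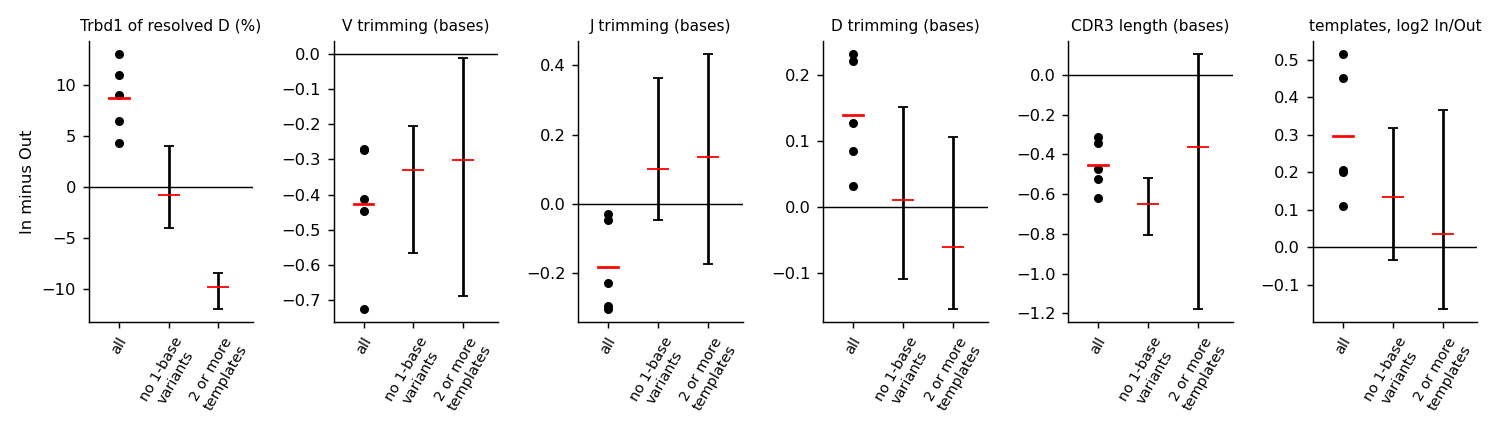
In minus Out for the share of Trbd1, trimming, CDR3 length and templates per rearrangement (log2 ratio), for all rearrangements (points, 5 mice; red line, mean), without those 1 base from a larger rearrangement and for those with 2 or more templates (red mark, mean; bars, lowest to highest mouse). The difference in Trbd1 is 8.76 percentage points with all, -0.722 without the neighbors and -9.74 at 2 or more templates, while V trimming and mean CDR3 length stay below 0 on average in all 3.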

How the data were processed

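The 5 lymph node tables were used. The authors deposited, per distinct 87-base rearrangement, a count of templates, its fraction of all templates, V, D and J genes, insertions, deletions and status. The deposited count equals the deposited estimate of genomes and was used without normalization, and the fraction was not used. The submitters' notes name mm10 (GRCm38), and the software is not given in the sources used here. From the tables, unique rearrangements per gene were counted for In and Out of each mouse. Genes with at least 10 rearrangements over all sets were tested with edgeR 4.0.16 (R 4.3.3; quasi-likelihood, mouse as a block, no TMM, Benjamini-Hochberg, adjusted p under 0.05). In and Out come from the same library, which is the pairing. Other measures are means per set, compared by two-sided exact sign-flip permutation tests over 5 mice. The sign-flip p-values rest only on the differences within these mice. The edgeR p-values rest also on the counts of rearrangements and on a dispersion estimated across the genes. limma 3.58.1 and DESeq2 1.42.0 were alternatives, and Python 3.11.15 was used.

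The comparison, the gene lists and the tests were chosen with earlier results of these data known. V genes named are, outside the pseudogene list, the 8 with the largest absolute log2 ratio called in each direction, with all J genes called and both D genes. Trbv24, Trbv19, Trbv16, the other uncalled V genes and the 1-base neighbors were named after their values were seen, and Trbv1 as a member of a fixed list. The reading frames of D and the separate sides of D trimming were added to the planned measures. Rearrangements of the same node were called 1-base neighbors over the last 60 bases, at 2 times the templates or more. Segments were read from GRCm38 with GENCODE M21 coordinates, in which all V, D and J names were found. The steps were tested on simulated data. Depth per set is given with the groups. 9 In and 2 Out rearrangements had no V gene.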

Additional observations from a re-analysis of the deposited data

Results flagged for a closer look

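Among the 62 sets of 5 mice examined, 4 had 1 mouse far from the others by Dixon's criterion, where chance flags about 1 in 20. Trbv12-1 made up 5.94% of In in mouse 1 and 8.44% to 8.91% in the others. Trbv13-3 made up 5.03% of In in mouse 2 and 5.69% to 5.94% in the others, which leaves mouse 2 above its own Out share. Trbv22 made up 1.03% of Out in mouse 3 and 0.602% to 0.697% in the others. Trbv27 made up 0.0742% of In in mouse 1, on 1 rearrangement, and was not seen in In in the others.

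The rearrangements with a stop codon in the CDR3, which are members of neither set, were concentrated in a pair of V genes. They made up 15.9% of the in-frame rearrangements of Trbv4 (134 of 842, 95% Wilson interval 13.6% to 18.5%) and 15.8% of those of Trbv24 (32 of 203, 11.4% to 21.4%), against 0.889% over all other V genes. In 132 of the 134 of Trbv4 the stop codon was the germline TAA at base 13 of the CDR3, and Trbv4 alone held 44.8% of the 299 rearrangements with a stop codon.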

How the results depend on the processing

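V gene usage kept its direction for every called gene under the alternatives run, with 4 exceptions among the gene and setting pairs: log2 ratios of 0.063 for Trbv5 at a minimum of 2 templates, 0.38 for Trbv5 and -0.11 for Trbv12-1 in limma on shares of templates, and 0.062 for Trbv19 in nodes 1 to 3 alone. The 21 V genes called became 12 in nodes 1 to 3, 13 in limma on shares of templates, and 15 to 19 with 1 mouse left out. In the exact sign-flip test per gene 0 passed, as 5 mice allow no p below 0.0625 (0 at an unadjusted p under 0.05 as well). The 3 J genes called became 5 without the 1-base neighbors, 1 in nodes 1 to 3, 1 in nodes 4 and 5, 1 in limma on shares of rearrangements, 0 in limma on shares of templates, 0 in the sign-flip test, and 1 to 3 with 1 mouse left out (1 without mouse 5).

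Trbj2-7 reversed to log2 ratios of 0.24 at a minimum of 2 templates, 0.41 without the 1-base neighbors and 0.21 by templates, and Trbj2-4 to -0.27 at a minimum of 2 templates and -0.10 without the neighbors. D gene usage reversed to -9.74 percentage points at a minimum of 2 templates, -0.722 without the neighbors and -0.0213 weighted by templates. V trimming reversed to 0.0674 bases weighted by templates, J trimming to 0.136 bases at a minimum of 2 templates and 0.10 without the neighbors, and D trimming to -0.0607 bases at a minimum of 2 templates. The cause of these changes was not tested. N insertions, CDR3 length and templates kept their direction under every alternative run. In nodes 1 to 3 and in nodes 4 and 5, which held more rearrangements, all 7 measures kept their direction. The sample titles name no batch, and whether these nodes form one was not tested.

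Without the replicate block, which here means without pairing In and Out of a mouse, 20 V and 4 J genes were called and the differences were as reported, with unpaired exact permutation p below 0.05: Trbd1 8.76 points, N insertions -0.753, V trimming -0.426, J trimming -0.181, D trimming 0.139 and CDR3 length -0.454 bases. For templates the unpaired exact permutation p was 0.262. With 1 mouse left out the ranges were 7.69 to 9.87 points, -0.785 to -0.731, -0.464 to -0.351, -0.219 to -0.151, 0.116 to 0.166 and -0.490 to -0.413 bases, and 0.24 to 0.34 on the log2 scale for templates. Without the minimum of 10 rearrangements 33 V genes were tested and 23 called, the further 2 being Trbv9 and Trbv18, lower in In. The smallest sets (717 to 877 Out rearrangements) limit what can be seen for rare genes.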
